A study of Mus musculus with 5 samples.

Results

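Transcripts of the Wnt pathway were examined in whole pancreata of newborn mice in which the exocrine tissue had lost the transcription factor gene Pdx1. Members were taken by symbol: every Wnt ligand, Frizzled receptor, secreted Frizzled-related protein and Dickkopf protein on the array, together with the co-receptors Lrp5 and Lrp6, the R-spondins and their receptors Lgr4 and Lgr5, Frzb, Wif1, the ubiquitin ligases Znrf3 and Rnf43, Ctnnb1, Lef1, Tcf7, Tcf7l2 and Axin2. This gave 54 probe sets for 53 of the 19938 genes measured. Wnt4 had 2 probe sets, which were averaged, and Tcf7 had none with a single symbol and was not analysed here. The 3 Pdx1cKO mice came from a cross of Elastase-Cre and Pdx1loxP mice, so that the recombinase is driven by an exocrine promoter and endocrine cells keep the gene, and the 2 control mice were labelled as not recombined. All 5 were dissected at postnatal day 1, and each pancreas was read on 1 Mouse Gene 1.0 ST array, which measures a gene with many probes along its transcript. The labels do not say which loxP or Cre alleles the control mice carried.

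Wnt ligands are secreted lipid-modified proteins that bind a Frizzled receptor together with Lrp5 or Lrp6. In the canonical branch this spares beta-catenin from destruction, and beta-catenin then joins TCF and LEF factors on target genes such as Axin2, which feeds back to dampen the signal. R-spondins, through Lgr receptors, hold back the ligases Znrf3 and Rnf43 that clear Frizzled from the membrane, while secreted Frizzled-related proteins, Wif1 and Dickkopf proteins act outside the cell, mostly as inhibitors. In the developing pancreas the pathway works between the mesenchyme, which makes many of the ligands and modulators, and the epithelium, where it is needed for the growth of acinar tissue.

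TCF and LEF factors recognise the core CTTTGAT or CTTTGTT, and the second form is also bound by SOX factors. Promoter windows of RefSeq (build GRCm38.p6), which run from 250 bases before to 50 bases after a start site, were found for 35 of the 53 Wnt genes, in 44 windows. A core on either strand was present in 6 of these genes (17.1%), against 2866 of 27025 genes in the whole table (10.6%), and in 13.6% of the windows against 9.33%. The 6 matches are printed because they are the sequence features by which pathway genes could themselves be read by the pathway's own factors. Each stretch is written along the gene's strand with the core in capitals, and a core on the opposite strand appears as ATCAAAG or AACAAAG.
Dkk1, chr19:30549578-30549604, minus strand: cccatcccggCTTTGTTgtcttccctg
Fzd7, chr1:59482007-59482033, plus strand: ccacagagaaAACAAAGcgcgctattg
Tcf7l2, chr19:55895297-55895323, plus strand: aaatatcaggCTTTGTTcttttgattg
Wnt11, chr7:98835051-98835077, plus strand: acgtgggcggATCAAAGcgacggtccg
Wnt3, chr11:103774183-103774209, plus strand: ctcaagtggaCTTTGTTccaactattg
Wnt5b, chr6:119449441-119449467, minus strand: gtaagtctctCTTTGATctgctccctg
The first base of the core lay 98 bases before the start site in Dkk1 and 130 bases before it in Fzd7. Some genes have several start sites, and the core stood in 1 of 2 windows of Tcf7l2, 1 of 2 of Wnt11 and 1 of 3 of Wnt5b. These matches are a description of letters and not of bound sites. The expression values of the 6 genes are given with their families below, and none of them passed the test between Pdx1cKO and control.

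The deposited intensities had array medians of 60.99 to 61.86. Pdx1 itself read 48.4, 48.4 and 42.9 in Pdx1cKO 1, 2 and 3, against 67.9 and 112.7 in control 1 and 2, with a log2 fold change of -0.91 (limma adjusted p = 0.385). Acinar markers stood lower in all 3 Pdx1cKO pancreata (list medians of 224 to 364, against 4782 in control 1 and 2601 in control 2), and 6 of 6 measured markers lay below both controls. Endocrine markers were lower too (list medians of 447 to 572, against 883 in control 1 and 838 in control 2), with 6 of 6 measured below both controls. Of the duct and trunk markers 2 of 4 measured lay below both. Markers of neighbouring tissues differed between arrays as well: liver transcripts were high in the Pdx1cKO pancreata (medians of 1231 to 4249, against 219.8 in control 1 and 334 in control 2), while 7 of 7 stomach markers were highest in control 2, with a list median of 43.3 to 46.9 in Pdx1cKO, 46.4 in control 1 and 1193 in control 2. All 6 measured liver markers lay above both controls in Pdx1cKO, as did 4 of 4 erythroid and 5 of 5 granulocyte markers, with median log2 fold changes of 2.93, 1.59 and 1.88. Xist was high in Pdx1cKO 1 and 2, and the Y-linked Eif2s3y in Pdx1cKO 3 and both controls, so that sexes were not balanced between the groups.

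No Wnt gene passed the test once p values were adjusted. At the threshold of 0.05 limma called 0 of the 53 members in either direction, as it called 0 of the 19938 genes (0%), while the methods' t-test gave 7 lower and 3 higher genes after Benjamini-Hochberg adjustment. Before adjustment 3 members were past a p of 0.05 on the higher side, Dkk2, Rspo3 and Lgr5, which is 3 of 53 against 5.29% of all genes, and 0 members were on the lower side, against 5.04% of all genes. Without control 1 there were 16 higher and 2 lower members, against 14.8% and 15.1% of all genes in the same fit. Without control 2 there were 1 higher and 5 lower, against 10.4% and 18.5%. Without Pdx1cKO 1, 2 or 3 the higher members numbered 1, 1 and 0, against 3.57%, 4.08% and 4.35%. Log2 fold changes of the 53 genes had a median of 0.02, beside -0.0012 over the whole table, and single values ran from -0.55 for Sfrp4 to 0.62 for Sfrp2. No member changed by as much as 1 on the log2 scale, where 450 of the 19938 genes did. Beyond 0.5 were 4 of the 53 members and 1281 of all genes.

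The groups separated in about as large a share of members as of all genes. In 8 members all 3 Pdx1cKO values lay above both controls (Wnt10a, Fzd2, Fzd4, Sfrp1, Sfrp2, Dkk2, Rspo3 and Lgr5), against 12% of all genes. In 7 members all 3 lay below both controls (Wnt4, Wnt7b, Wnt9a, Fzd5, Sfrp4, Lgr4 and Tcf7l2), against 11.7% of all genes. The remaining 38 overlapped. Against control 2 alone 26 members lay above (31.1% of all genes) and 9 below (28%), and against control 1 alone 9 lay above (25.5%) and 17 below (33.3%). With 3 against 2 mice the smallest p an exact two-sided permutation test on ranks can give is 0.2, so no single gene can pass by order alone. Exact ties between samples were present in 30 of the 53 members and in 66.0% of all genes. Values identical in all 3 Pdx1cKO arrays were found in 6 members (Wnt3, Wnt5b, Wnt7a, Wnt16, Fzd10 and Lef1) and in 15.67% of all genes. In whole pancreas, fewer cells of a type and less RNA per cell cannot be told apart.

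**Figure D1:**
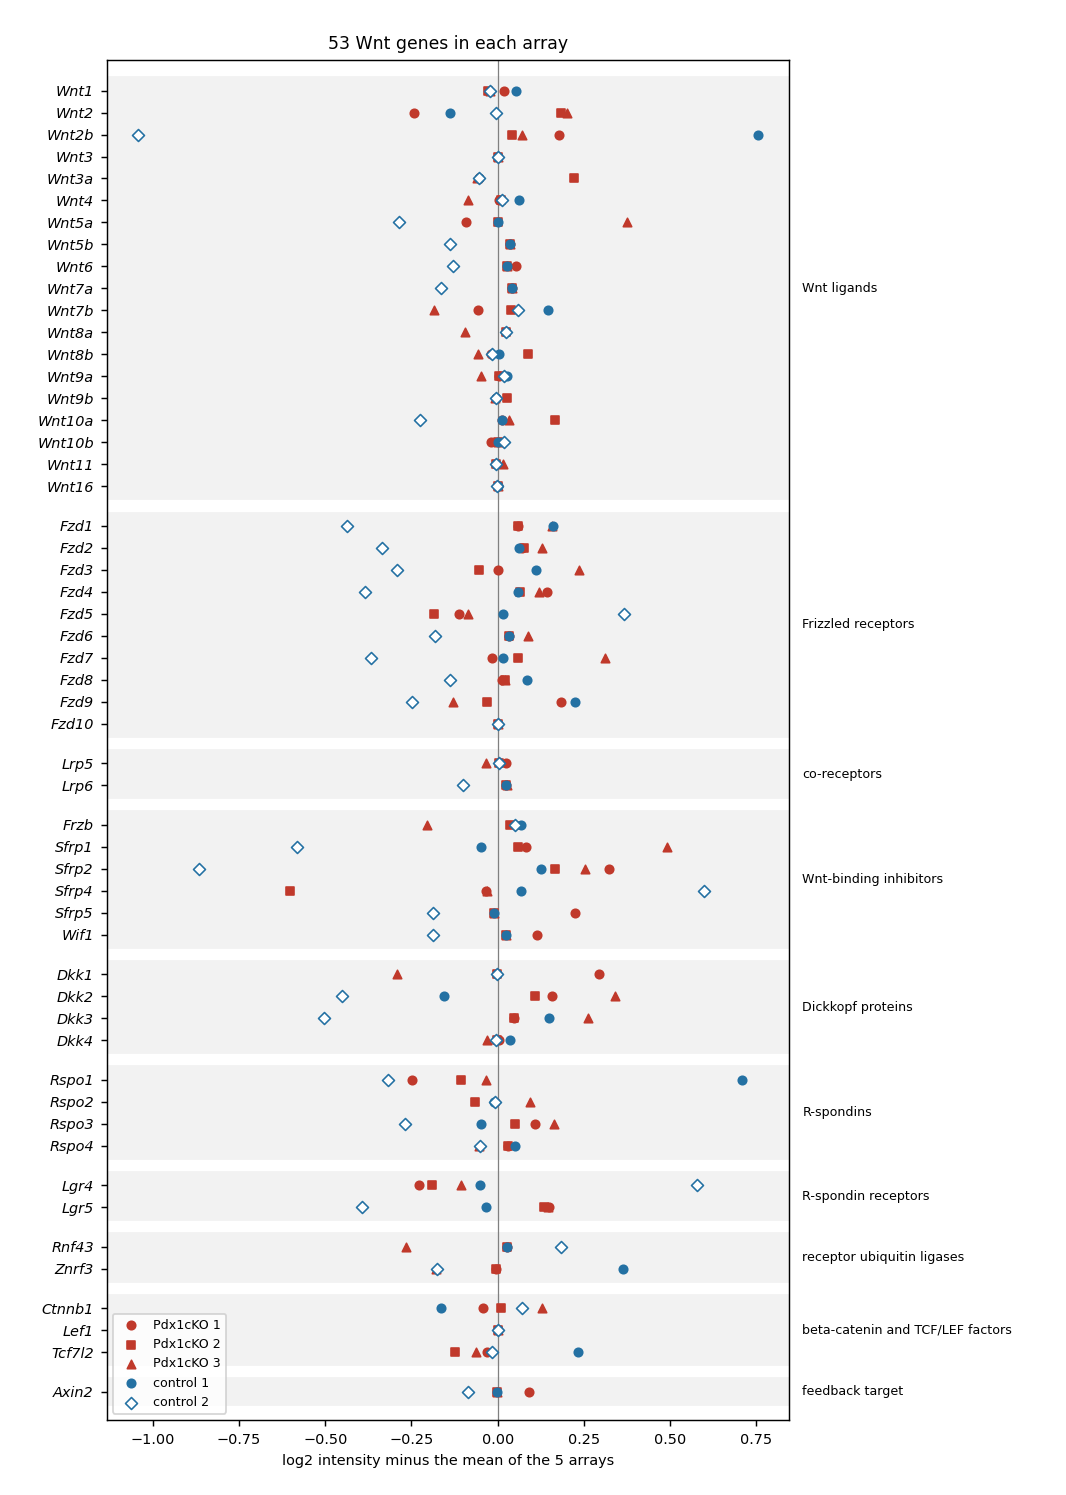
Log2 intensity of each of the 53 Wnt genes in each array, given as the difference from the mean of the 5 arrays (horizontal axis) and grouped by role; red, Pdx1cKO 1 to 3; blue, control 1 (filled) and control 2 (open). Most Pdx1cKO points and control 1 lie near 0, while control 2 lies to the left in 26 genes, among them 8 of the 10 Frizzled receptors.

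Dkk2 had the clearest separation among the Wnt genes. It encodes a secreted modulator that binds Lrp5 and Lrp6, and its intensities were 127, 123 and 145 in Pdx1cKO 1, 2 and 3, against 102 in control 1 and 83.5 in control 2. The nearest values of both groups were 0.26 apart on the log2 scale. The log2 fold change was 0.51 (standard error 0.13, 95% confidence interval 0.13 to 0.88, limma adjusted p = 0.356). It was 0.65 without control 1 and 0.36 without control 2. Mesenchyme markers were also higher in Pdx1cKO relative to control 2, as described with the comparison of the controls, and their part in this difference was not tested.

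The other Dickkopf genes did not separate. Dkk3, the most divergent of the family, read 146, 146 and 169 in Pdx1cKO, against 156 in control 1 and 99.4 in control 2, so that control 1 lay within the Pdx1cKO range. Its log2 fold change of 0.30 (limma adjusted p = 0.534) became -0.03 without control 2. Dkk1, a strong inhibitor of the co-receptors, spread within the Pdx1cKO mice (60.3, 49.2 and 40.2) around an identical 49.2 in both controls. Dkk4 had a log2 fold change of -0.03, with overlapping groups.

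Rspo3 and Lgr5, a ligand and a receptor of the R-spondin system, were the other members past an unadjusted p of 0.05. Rspo3 had intensities of 97.8, 93.9 and 101.6 in Pdx1cKO, against 87.7 in control 1 and 75.3 in control 2, a log2 fold change of 0.27 (standard error 0.08, 95% confidence interval 0.02 to 0.51, limma adjusted p = 0.436). Lgr5, which is also a target gene of the pathway and marks stem cells in several epithelia, read 62.7, 62.1 and 62.6 in Pdx1cKO, against 55.3 in control 1 and 43.1 in control 2. The 3 Pdx1cKO values of Lgr5 were almost identical and lay above both controls. They were near the array medians of 60.99 to 61.86, and both controls lay below these medians. Lgr5 was thus dim, and whether it was expressed cannot be read from these values. Its log2 fold change was 0.36 (standard error 0.12, 95% confidence interval 0.00 to 0.71, limma adjusted p = 0.478). It was 0.54 without control 1 and 0.17 without control 2.

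Lgr4, the broadly expressed receptor of the same family, ran the other way. Its intensities were 218, 224 and 237 in Pdx1cKO, against 246 in control 1 and 381 in control 2. The Pdx1cKO values lay just under control 1 and far under control 2. The log2 fold change of -0.44 (95% confidence interval -1.06 to 0.18, limma adjusted p = 0.515) was -0.75 without control 1 and -0.12 without control 2, the array with stomach transcripts. The part of those transcripts in the value was not tested.

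Rspo1 was set by control 1. It read 189, 209 and 219 in Pdx1cKO, against 367 in control 1 and 180.2 in control 2, so control 1 stood 0.74 above the next array on the log2 scale and control 2 just under the lowest Pdx1cKO value. Pdx1cKO minus control gave a log2 value of -0.32 with a standard error of 0.35 (limma adjusted p = 0.646), which turned to 0.19 without control 1. Mesothelium markers had their highest list median in the same array (568.8 to 666.2 in Pdx1cKO, 926.9 in control 1 and 449.8 in control 2), and their part in the Rspo1 value was not tested. Rspo2 (log2 fold change 0.02) and Rspo4 (0.00) had overlapping groups.

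**Figure D2:**
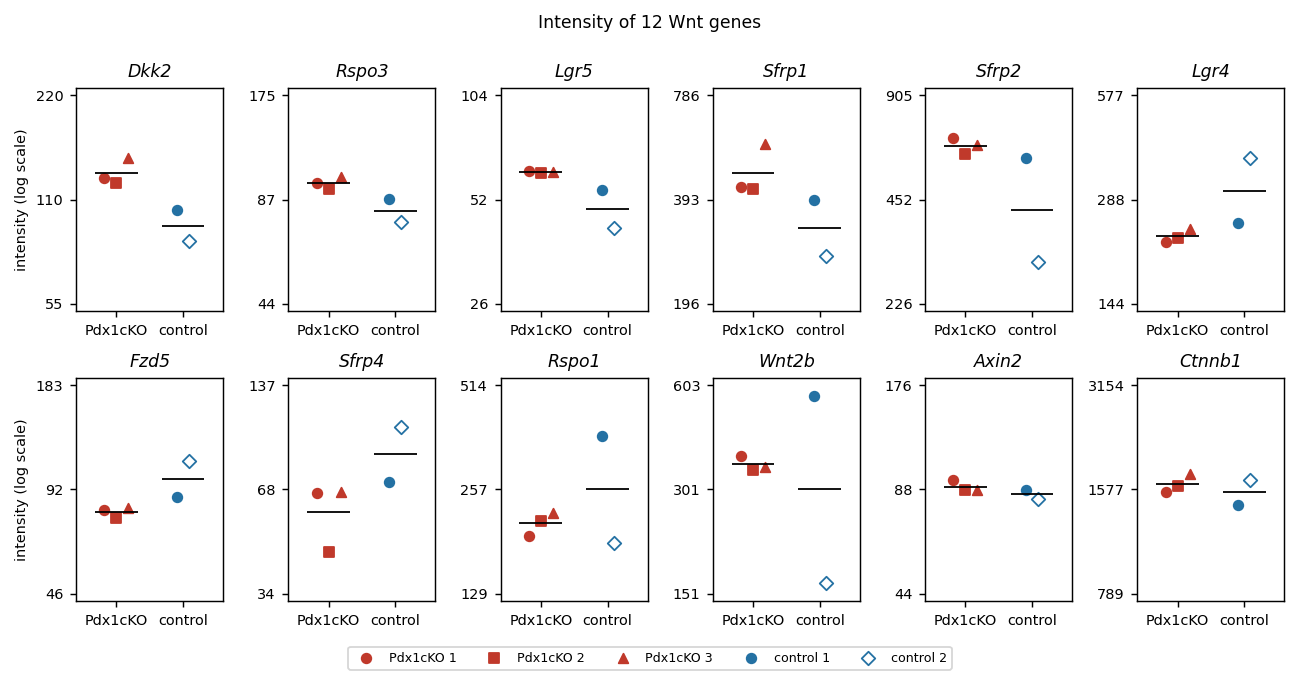
Intensity (log scale) of 12 Wnt genes in the 3 Pdx1cKO and 2 control arrays; each point is an array and each line the geometric mean of its group. Dkk2, Rspo3, Lgr5, Sfrp1 and Sfrp2 have all Pdx1cKO values above both controls, and Lgr4, Fzd5 and Sfrp4 have all below both. Rspo1 and Wnt2b are spread by the controls alone, with Wnt2b at 562 in control 1 and 162 in control 2.

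The secreted Frizzled-related proteins, which bind Wnt ligands outside the cell, held the largest fold changes of both signs. Sfrp2 had intensities of 683, 613 and 651 in Pdx1cKO, against 596 in control 1 and 299.7 in control 2. Control 1 lay just below the lowest Pdx1cKO value and control 2 far below it. The log2 fold change of 0.62 (95% confidence interval -0.35 to 1.59, limma adjusted p = 0.515) was 1.11 without control 1 and 0.12 without control 2.

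Sfrp1 followed the same order, with 429, 422 and 569 in Pdx1cKO, against 391.9 in control 1 and 271 in control 2. Its log2 fold change was 0.52 (95% confidence interval -0.17 to 1.22, limma adjusted p = 0.515), or 0.79 without control 1 and 0.26 without control 2. Sfrp4 was the mirror case, with 66.9, 45.1 and 67.0 in Pdx1cKO, against 71.7 in control 1 and 103.6 in control 2. The Pdx1cKO 2 array was its low point and control 2 its high point, and the log2 fold change was -0.55 (95% confidence interval -1.37 to 0.26, limma adjusted p = 0.515), or -0.29 without control 2 and -0.36 without Pdx1cKO 2. Sfrp5 (log2 fold change 0.17), Frzb (-0.10) and Wif1 (0.14), the last of which binds Wnt ligands through another domain, had overlapping groups.

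Among the 10 Frizzled receptors, 8 had a positive log2 fold change, 1 a negative one and Fzd10 was identical on all arrays. Their median was 0.14 and none was past an unadjusted limma p of 0.05. Fzd4 read 299.9, 284 and 295 in Pdx1cKO, against 283 in control 1 and 208 in control 2, and Fzd2 read 235, 236 and 245, against 234 and 177. In both genes control 1 was nearly level with the lowest Pdx1cKO mouse, and the gaps that separated the groups were 0.01 or less on the log2 scale. Fzd7, with a core in its promoter window, read 221, 233 and 277 in Pdx1cKO, against 226 and 174 in control 1 and 2. Fzd1 read 318, 318 and 339.8 in Pdx1cKO, against 341 and 225 in the controls. In these receptors, as in Fzd3 and Fzd6, control 2 was the lowest array by more than 0.2.

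Fzd5, a receptor expressed in many epithelia, was the exception. It read 79.6, 75.7 and 81.0 in Pdx1cKO, against 87.0 in control 1 and 110.8 in control 2, and all 3 Pdx1cKO values lay below both controls. The log2 fold change was -0.32 (standard error 0.12, 95% confidence interval -0.67 to 0.03, limma adjusted p = 0.515). It was -0.49 without control 1 and -0.14 without control 2. The co-receptors moved little: Lrp5 had a log2 fold change of -0.00 (95% confidence interval -0.07 to 0.06) and Lrp6 one of 0.06 (-0.06 to 0.19).

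The 19 Wnt ligands differed little between the groups, with log2 fold changes of -0.17 (Wnt7b) to 0.24 (Wnt2b) and a median of 0.01. Most of them were dim, with list medians of 51.1 to 59.6 on the 5 arrays. Of the 53 members 22 had a mean intensity below 64, near the array medians. Whether a dim ligand was expressed cannot be read from these values, so a small difference there says little. The groups overlapped in 15 of them. Wnt7b, an epithelial ligand, read 55.8, 59.6 and 51.1 in Pdx1cKO, against 64.2 and 60.4 in control 1 and 2. Wnt4 and Wnt9a also lay below both controls, though by gaps of 0.00 and 0.01 on the log2 scale, and Wnt10a above both by 0.00. The order of Wnt4 held only for the average of its 2 probe sets and for 1 of them. The other overlapped, at 84.2, 85.1 and 79.0 in Pdx1cKO, against 84.2 and 84.9 in control 1 and 2. Wnt3, Wnt5b and Wnt11, the ligands with a core in a promoter window, had log2 fold changes of 0.00, 0.09 and 0.01.

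Wnt2b, a ligand of the canonical branch, differed most between the controls. It read 377, 343 and 350.1 in Pdx1cKO, against 562 in control 1 and 162 in control 2. Control 1 was the highest array by 0.58 and control 2 the lowest, with the Pdx1cKO mice tightly grouped between them (SD 0.07 on the log2 scale, against 1.27 in the controls). Its log2 fold change of 0.24 has a standard error of 0.61. Wnt5a, best known for non-canonical signaling, read 200.5, 214 and 277 in Pdx1cKO, against 214 and 175 in the controls, and the Pdx1cKO 3 array alone was high.

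**Figure D3:**
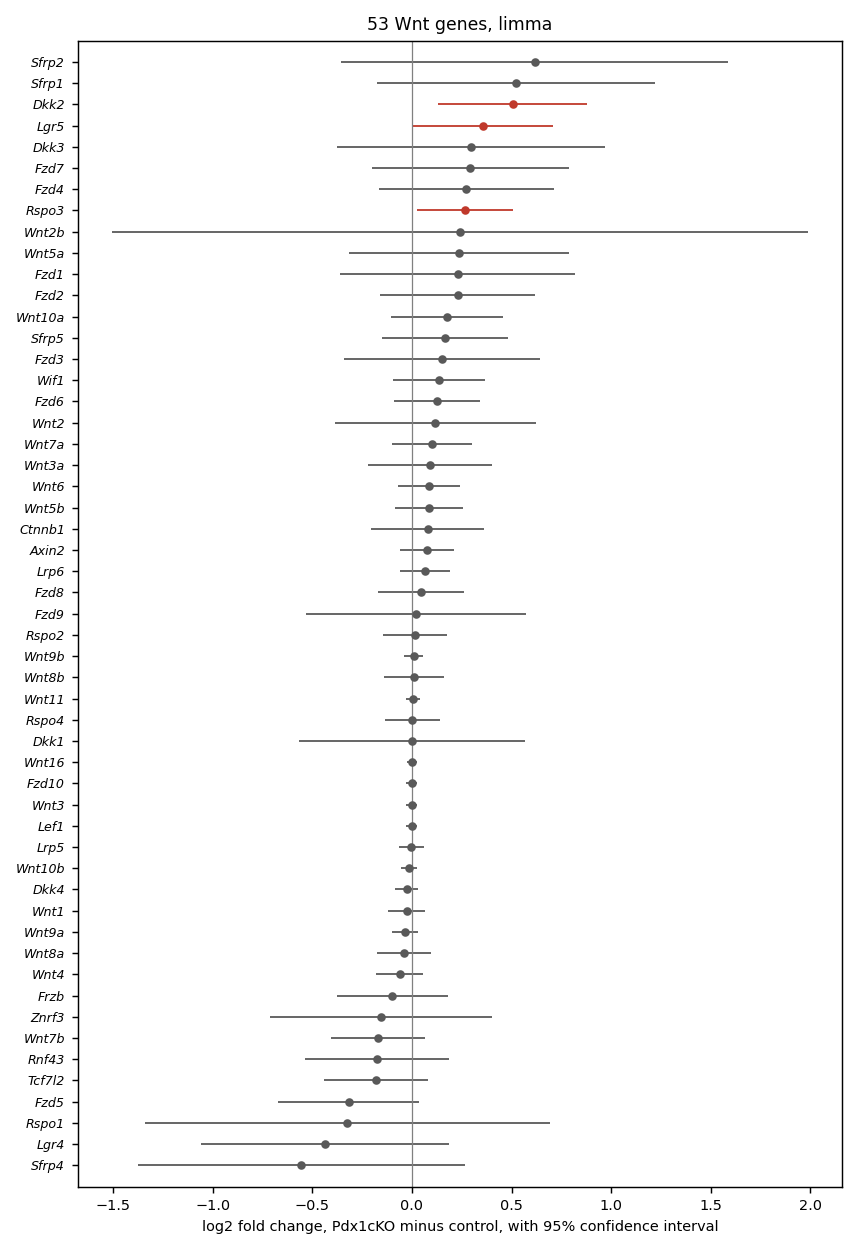
Log2 fold change of Pdx1cKO over control for the 53 Wnt genes, ordered by size, with 95% confidence intervals from limma; red marks the 3 genes with an unadjusted p under 0.05 (Dkk2, Rspo3 and Lgr5). Values run from 0.62 for Sfrp2 at the top to -0.55 for Sfrp4 at the bottom, and the widest interval is that of Wnt2b.

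None of the effectors inside the cell passed the test. Ctnnb1, which encodes beta-catenin, read 1549, 1609 and 1745 in Pdx1cKO, against 1425 in control 1 and 1676 in control 2, a log2 fold change of 0.08 (limma adjusted p = 0.682) that was -0.04 without control 1. Its protein is regulated by stability, which the array does not see. Tcf7l2, a TCF factor with a core in 1 of its 2 promoter windows, read 190.3, 179 and 186 in Pdx1cKO, against 229 and 192 in control 1 and 2. All 3 values lay below both controls, by 0.02 on the log2 scale, and the log2 fold change was -0.18 (standard error 0.09, limma adjusted p = 0.515), or -0.06 without control 1 and -0.31 without control 2. Lef1 was listed at 51.1 on all 5 arrays.

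Axin2, the most widely used reporter of canonical signaling, read 93.4, 87.5 and 87.5 in Pdx1cKO, against 87.5 in control 1 and 82.5 in control 2. The log2 fold change was 0.07 (95% confidence interval -0.06 to 0.21, limma adjusted p = 0.515), and the groups touched at a shared value. It was 0.12 without control 1 and 0.03 without control 2. Rnf43 and Znrf3, ligases that are also targets of the pathway, had log2 fold changes of -0.18 (limma adjusted p = 0.515) and -0.16 (limma adjusted p = 0.68). Rnf43 read 75.2, 75.2 and 61.3 in Pdx1cKO, against 75.2 and 83.7 in the controls, and its fold change was -0.10 without control 2, -0.08 without Pdx1cKO 3 and -0.37 with the sex pattern as a covariate. Znrf3 read 147, 147 and 131 in Pdx1cKO, against 189.9 and 131 in control 1 and 2. Pdx1cKO 3 was the lowest array for Rnf43 and level with control 2 for Znrf3, which turned to 0.11 without control 1, its highest array.

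The controls differed from each other more than the Pdx1cKO mice did. Over the 53 genes the median SD on the log2 scale was 0.06 within Pdx1cKO and 0.12 within the controls, against 0.04 and 0.07 over all genes. Control 1 lay within the range of the 3 Pdx1cKO values for 27 of the 53 members (50.9%, against 41.3% of all genes), and control 2 for 18 (34%, against 40.8%). Control 2 was more than 0.2 from the Pdx1cKO mean, in either direction, in 23 members (43.4%, against 26.6% of all genes). Of these 23 members 19 lay below the mean. For control 1 the count in either direction was 9 (17%, against 25.2%).

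Control 2 was the lowest of the 5 arrays in 26 members (49.1%, against 25.9% of all genes), and the lowest by more than 0.2 in 16 (30.2%, against 8.4%). These 16 were Wnt2b, Wnt7a, Wnt10a, Fzd1, Fzd2, Fzd3, Fzd4, Fzd6, Fzd7, Sfrp1, Sfrp2, Wif1, Dkk2, Dkk3, Rspo3 and Lgr5. Every member past an unadjusted p of 0.05 is among them. Control 2 was the highest array by that margin in Fzd5, Sfrp4 and Lgr4. Control 1 was the highest by that margin in Wnt2b, Rspo1, Znrf3 and Tcf7l2, and in no member the lowest by it.

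**Figure D4:**
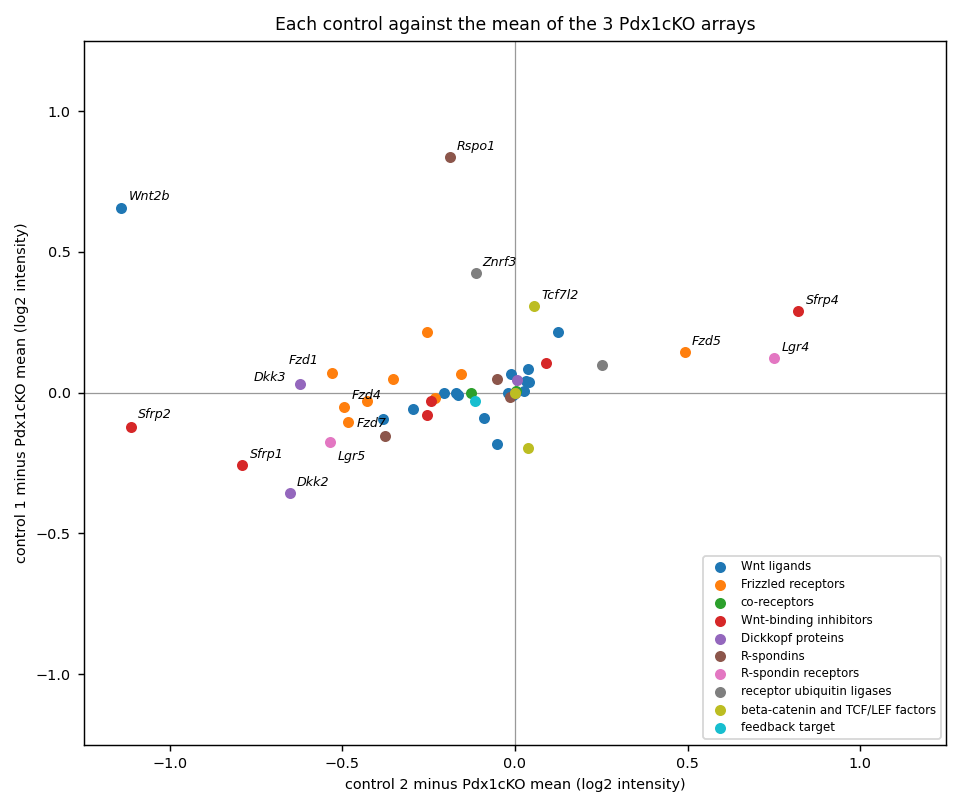
Difference of control 2 (horizontal axis) and control 1 (vertical axis) from the mean of the 3 Pdx1cKO arrays, in log2 intensity, for the 53 Wnt genes, so that a positive value means higher in that control; colors give the role. The points spread further along the axis of control 2, with 19 genes more than 0.2 below the Pdx1cKO mean and 4 above it, than along that of control 1, with 2 below and 7 above.

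Mesenchyme, endothelium and most mesothelium markers were also lowest in control 2, while smooth muscle markers were not. The 8 mesenchyme markers, collagens, Dcn, Lum, Pdgfra, Pdgfrb and Vim, had list medians of 2382 to 2766 in Pdx1cKO, against 2531 in control 1 and 1666 in control 2. All 8 were lowest in control 2, 7 of them by more than 0.2, and 4 of the 8 lay above both controls in Pdx1cKO. The 5 endothelium markers had list medians of 302 to 396 in Pdx1cKO, against 297 in control 1 and 211 in control 2, and all 5 were lowest in control 2. Of the 4 mesothelium markers 3 were lowest in control 2 by more than 0.2, and 3 were highest in control 1. Their list medians were 568.8 to 666.2 in Pdx1cKO, 926.9 in control 1 and 449.8 in control 2. The 5 smooth muscle markers had list medians of 858 to 1127 in Pdx1cKO, against 969 in control 1 and 1326 in control 2, and 4 of the 5 were highest in control 2. With both controls included, the Pdx1cKO over control log2 difference had a median of 0.33 for the mesenchyme list and 0.40 for endothelium. The list median of control 1 lay within the Pdx1cKO range for mesenchyme and just below that range for endothelium. No marker of these lists was at 0, since the lowest intensity on any array was 18.0. Without control 2 the log2 fold changes were 0.36 for Dkk2, 0.16 for Rspo3, 0.17 for Lgr5, 0.26 for Sfrp1 and 0.12 for Sfrp2. The part of mesenchyme, endothelium, mesothelium, smooth muscle and stomach transcripts in the Wnt values was not tested. Nor was that of the acinar, duct, endocrine, liver, erythroid and granulocyte transcripts, which differed between the groups. With 2 control mice the state of 1 array and the control group cannot be told apart.

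**Figure D5:**
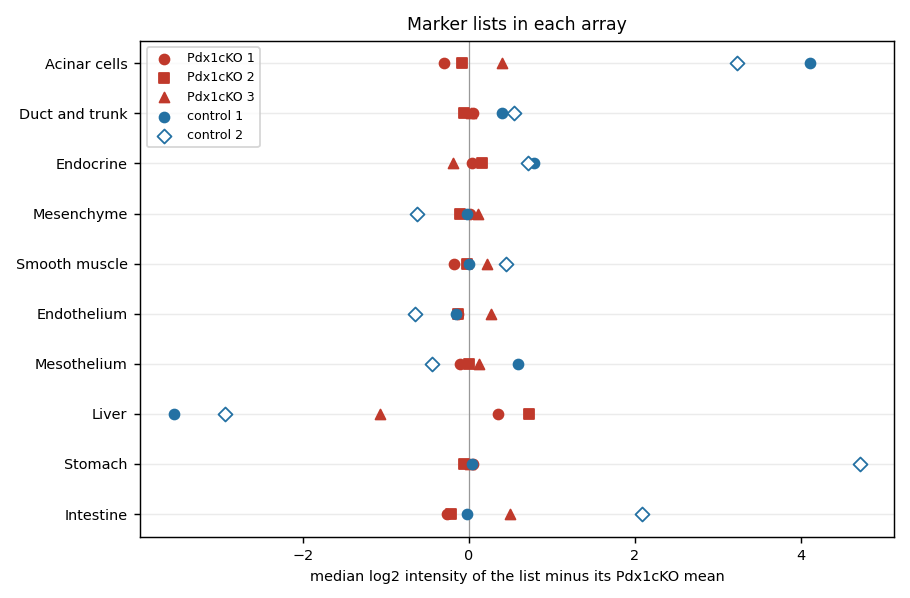
Median log2 intensity of each marker list in each array, given as the difference from its Pdx1cKO mean; red, Pdx1cKO 1 to 3; blue, control 1 (filled) and control 2 (open). The acinar, duct and endocrine lists are lower in every Pdx1cKO array than in both controls, and the liver list is higher. Control 2 alone is high for stomach (1193) and intestine markers (217), and low for mesenchyme (1666) and endothelium markers (211). For mesothelium markers control 1 is the highest array (926.9) and control 2 the lowest (449.8).

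A further 53 genes of the pathway, listed by role, also gave 0 calls after adjustment. Before adjustment 2 were lower and 6 higher at a p of 0.05, against 5.04% and 5.29% of all genes, their median log2 fold change was 0.02, and in 38 the groups overlapped. In 12 all Pdx1cKO values lay above both controls and in 3 below, against 12% and 11.7% of all genes. Of the 3 genes for ligand processing, Porcn, the acyltransferase that lipidates Wnt proteins, read 70.5, 61.8 and 64.1 in Pdx1cKO, against 88.4 in control 1 and 78.1 in control 2. Its 3 values were separated from both controls by 0.15 on the log2 scale, with a log2 fold change of -0.35 (limma adjusted p = 0.361). Wls, the ligand's transport receptor, had a log2 fold change of 0.16, or 0.27 without control 1 and 0.05 without control 2.

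Among 9 further secreted or membrane modulators, Igfbp4, an IGF-binding protein that can also block the co-receptor, read 1558, 1490 and 1518 in Pdx1cKO, against 1175 in control 1 and 806 in control 2. The groups were 0.34 apart at their nearest values on the log2 scale, and its log2 fold change was 0.64 (limma adjusted p = 0.394). Apcdd1, a membrane inhibitor and a target of the pathway, had a log2 fold change of 0.44 (limma adjusted p = 0.424). Both were lowest in control 2, and without it Igfbp4 stood at 0.37 and Apcdd1 at 0.26. Without control 1 Igfbp4 stood at 0.92 and Apcdd1 at 0.62. Of 11 receptors and polarity genes of the non-canonical branch, Ror1, a receptor for Wnt5a, read 436, 428 and 427 in Pdx1cKO, against 367 in control 1 and 267 in control 2 (log2 fold change 0.46, limma adjusted p = 0.469). Its value was 0.23 without control 2 and 0.69 without control 1. Ryk had a log2 fold change of 0.22, or 0.15 without control 2.

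In the cytoplasmic cascade of 10 genes, Btrc, which marks beta-catenin for destruction, had a log2 fold change of 0.15 (limma adjusted p = 0.3) and the kinase Csnk1a1 one of 0.23 (limma adjusted p = 0.515), which was 0.08 without control 1 and 0.37 without control 2. Of 11 nuclear partners, Ctbp2, a co-repressor, read 206, 208 and 211 in Pdx1cKO, against 234 and 234 in control 1 and 2. The controls were level and each Pdx1cKO value lay under them. In the fit of all samples its log2 fold change of -0.17, with a standard error of 0.02, did not pass (limma adjusted p = 0.183). The fold change was also -0.17 with either control left out. Its relative Ctbp1 had a log2 fold change of 0.29 (limma adjusted p = 0.444), of the opposite sign. The 9 further target genes had a median log2 fold change of -0.03, and the 2 with the smallest p were Cd44, a cell surface receptor, at 0.41 (limma adjusted p = 0.515) or 0.25 without control 1, and Ascl2, a factor of intestinal stem cells, at -0.11 (limma adjusted p = 0.515), or -0.17 without control 1 and -0.05 without control 2.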

How the data were processed

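RNA of 3 Pdx1cKO and 2 control pancreata was hybridised to 1 array each. The authors deposited linear intensities of 28853 probe sets from GeneSpring GX software. How they corrected background and normalized is not given in the sources used, though array medians were already near equal. Without detection calls, a dim gene cannot be placed above or below background. Log2 was taken with no pseudocount. The 21789 probe sets with 1 symbol in the platform annotation were averaged into 19938 genes. Groups were compared with lmFit and eBayes of limma 3.58.1 in R 4.3.3, with Benjamini-Hochberg adjustment over all genes. The number of mice limits the precision.

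The members and lists were chosen with earlier results of these data known, so lists are described by counts and medians with no test. Genes named with all values were those with an unadjusted p under 0.05, the 5 most negative and 5 most positive fold changes, and Ctnnb1, Lef1, Tcf7l2, Axin2, Lgr5, Rnf43 and Znrf3. Other members were named within their family, and Igfbp4, Porcn and the like as the 2 smallest p of each further list. Promoter windows came from the RefSeq table of GRCm38.p6. The fit was first tested on simulated data. Alternatives were 2 other scalings (median and quantile), filters on dim genes, other handling of several probe sets, eBayes with trend, array weights, the methods' t-test, a sex covariate, a replicate block and leaving out each sample.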

Additional observations from a re-analysis of the deposited data

How the results depend on the processing

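Over all genes 0 passed at an adjusted p of 0.05 in either direction under every scaling, filter, probe set and variance setting tried and with array weights, the sex covariate and the replicate block. The methods' t-test gave 7 lower and 3 higher after Benjamini-Hochberg adjustment. With 1 sample left out, 0 to 2072 genes were lower and 0 to 1604 higher (without control 1, 1783 and 1604; without control 2, 2072 and 995), where the remaining control was assumed to vary like the Pdx1cKO mice. Of the Wnt genes, the count lower at an unadjusted p of 0.05, 0 as reported, was 1 with median scaling (5.38% of all genes), 1 with quantile normalization (5.13%), 6 with the sex covariate (5.26%) and 0 to 5 with a sample left out (2 without control 1, 15.1%; 5 without control 2, 18.5%). The count higher, 3 as reported, was 1 with array weights (1.21% of all genes), 1 with the sex covariate (6.33%), 1 with the methods' t-test (3.68%), 1 with the replicate block (4.31%) and 0 to 16 with a sample left out (16 without control 1, 14.8%; 1 without control 2, 10.4%; 0 without Pdx1cKO 3, 4.35%). The count below both controls, 7, was 11 with median scaling (19% of all genes) and 7 to 17 with a sample left out (17 without control 2, 33.3%), and that above both, 8, was 5 with median scaling (11.1%) and 8 to 26 with a sample left out (26 without control 1, 31.1%). The median log2 fold change stayed between 0.00 and 0.09.

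For the 16 named genes 244 of 253 values under 16 settings kept their sign and their side of the adjusted threshold. Much of this was fixed in advance. None of these genes has several probe sets, so filters, probe set handling, eBayes settings and the t-test could not move their fold changes. As no gene passed in the main fit, keeping the side of the threshold says little. With a sample left out Rspo1 ran from -0.84 to 0.19, Dkk3 from -0.029 to 0.62, Ctnnb1 from -0.038 to 0.20 and Znrf3 from -0.42 to 0.11. The values that crossed the threshold were those of Lgr5 without either control, and of Lgr4, Fzd5 and Sfrp2 without control 1. In those fits the remaining control was assumed to vary like the Pdx1cKO mice, and many other genes crossed it too, so no conclusion is drawn from them. The labels do not say that the replicate numbers pair the mice. Same-numbered mice had a correlation of the deviations of 0.02 over 2 pairs, which are too few to exclude a shared litter or batch. The replicate block is therefore given only as above. The cause of these shifts was not tested.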
